A study of Mus musculus with 6 samples.

Results

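The genes described here are the estrogen receptors Esr1, Esr2 and Gper1 and the estrogen-metabolizing enzymes Cyp1b1, Sts, Sult1a1, Hsd17b4, Hsd17b10 and Hsd17b11, taken by gene symbol from a table of RPKM values (read counts corrected for the length of the exons and for library size). Of these 9 genes, 8 had a row in the table of 24421 genes, and Sts was not analysed here. A mean of at least 1 RPKM over the 6 libraries was required for testing, which 6 of the 9 genes passed among 10950 genes in all. Esr2 and Gper1 lay under that level and are given as values only.

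The RNA came from macrophages of the visceral fat of male C57BL/6N mice aged 12 weeks, all on a diet with 60 kcal% fat. Mice were injected under the skin every 6 days for 30 days with 4-hydroxyestrone (4-OHE1) at 10 mg/kg, with estradiol (E2) at 10 mg/kg, or with the ethanol vehicle (EtOH). Live cells stained for CD45 and positive for F4/80 and CD11b were sorted from the tissue. Each group had 2 libraries, and the labels do not say whether these came from separate animals, so p-values measure only the spread between libraries, which may be technical.

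Estrogens act through the nuclear receptors ERα (Esr1) and ERβ (Esr2), which bind DNA at estrogen response elements and recruit coregulators, and through the membrane receptor GPER (Gper1). The supply of active hormone in a tissue is set by enzymes. Human CYP1B1 hydroxylates estrogens at the aromatic ring to catechols such as 4-OHE1, STS releases estrogens from their sulfates, sulfotransferases such as SULT1A1 add the sulfate, and 17β-hydroxysteroid dehydrogenases interconvert estradiol and estrone. Compared with E2, 4-OHE1 has a catechol in place of the phenol and a ketone in place of the hydroxyl on the D ring.

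The libraries differed in ways that touch every value below. Reads in exons numbered 4515276 to 5764342 in 4-OHE1, 5349386 to 5606659 in E2 and 18697511 to 35294046 in EtOH. Their share of all tags was 61.7% ± 1.19 in 4-OHE1, 74.1% ± 2.41 in E2 and 84.8% ± 0.366 in EtOH (SD, n = 2 each). Malat1, a nuclear RNA, stood at 919 ± 93.6, 433 ± 103.6 and 198.8 ± 1.83 RPKM in 4-OHE1, E2 and EtOH. The authors scaled RPKM to all tags, which set the median log2 change over all tested genes at -0.44 for 4-OHE1 against EtOH and -0.18 for E2 against EtOH. With RPKM rescaled to exon reads these medians were -0.043 and -0.0049. RPKM levels below are on the authors' scale. Log2 changes are of RPKM + 1 after rescaling to exon reads, and a gene is said to have risen or fallen only where limma gave an adjusted p under 0.05 in the same direction under both scalings. The adjusted p printed is the larger of both. Log2 changes of RPKM + 1 understate the change of genes near 1 RPKM, such as Esr1 and Cyp1b1.

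The 250 bases before the annotated start (RefSeq, GRCm38.p6) are shown for Sult1a1 and Esr1, both higher in 4-OHE1, and for Cyp1b1, whose human form makes catechol estrogens. They are printed 5′ to 3′ on the gene's strand, and Esr1 has a pair of annotated starts. Capitals mark a match to 1 of 4 motifs searched on both strands. These were the full estrogen response element (GGTCA and its inverted repeat, 3 bases apart), its single arm GGTCA, the core GCGTG bound by the aryl hydrocarbon receptor, and the glucocorticoid response element (GNACA and its inverted repeat, 3 bases apart).
Sult1a1, chr7:126676419-126676668, minus strand: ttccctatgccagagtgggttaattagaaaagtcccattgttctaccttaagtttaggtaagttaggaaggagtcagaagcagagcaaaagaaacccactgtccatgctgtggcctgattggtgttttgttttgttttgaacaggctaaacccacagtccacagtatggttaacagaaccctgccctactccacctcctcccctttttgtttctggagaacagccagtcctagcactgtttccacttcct
Esr1, first start, chr10:4611739-4611988, plus strand: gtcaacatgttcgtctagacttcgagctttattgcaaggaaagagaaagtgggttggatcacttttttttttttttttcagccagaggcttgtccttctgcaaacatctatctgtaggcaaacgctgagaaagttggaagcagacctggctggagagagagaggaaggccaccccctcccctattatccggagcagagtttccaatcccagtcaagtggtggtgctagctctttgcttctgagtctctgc
Esr1, second start, chr10:4709908-4710157, plus strand: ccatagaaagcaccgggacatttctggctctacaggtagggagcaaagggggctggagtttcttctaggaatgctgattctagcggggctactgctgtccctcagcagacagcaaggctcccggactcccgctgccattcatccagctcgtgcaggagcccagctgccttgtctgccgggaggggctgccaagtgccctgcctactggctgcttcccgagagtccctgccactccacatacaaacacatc
Cyp1b1, chr17:79715062-79715311, minus strand: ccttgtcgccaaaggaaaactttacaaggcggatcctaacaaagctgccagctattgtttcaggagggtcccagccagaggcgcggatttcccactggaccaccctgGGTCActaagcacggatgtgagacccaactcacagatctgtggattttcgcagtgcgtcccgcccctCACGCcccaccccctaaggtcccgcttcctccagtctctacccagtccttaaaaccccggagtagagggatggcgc
The Cyp1b1 window held 1 single arm, 143 bases before the start, and 1 aryl hydrocarbon receptor core, read as CACGC, 76 bases before it. None of the 4 motifs was found in the Sult1a1 window or in either Esr1 window. Among 32851 promoter windows of the same length the single arm was in 35.2%, the aryl hydrocarbon receptor core in 28.2%, the glucocorticoid element in 0.387% and the full estrogen element in 0.0639%. The single arm is contained in the full element. Of the 9 genes, 7 had a window in the RefSeq table, with 8 windows in all, and none held the full estrogen element or the glucocorticoid element.

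The sulfotransferase and the dehydrogenases were abundant, and the receptors and Cyp1b1 were low. In EtOH, Sult1a1 had the highest level at 116.95 ± 5.48 RPKM, followed by Hsd17b11 at 72.4 ± 2.26 RPKM. Hsd17b4 at 42.9 ± 1.69 RPKM and Hsd17b10 at 42.8 ± 3.71 RPKM did not differ beyond their spread. Cyp1b1 at 1.29 ± 0.0905 RPKM and Esr1 at 1.17 ± 0.100 RPKM overlapped between libraries, with Gper1 at 0.234 ± 0.0233 RPKM and Esr2 at 0.0075 ± 0.0106 RPKM below them (SD, n = 2 each). Sult1a1 and Hsd17b11 kept ranks 1 and 2 in all 3 groups, while Esr1 ranked above Cyp1b1 in 4-OHE1.

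**Figure D1:**
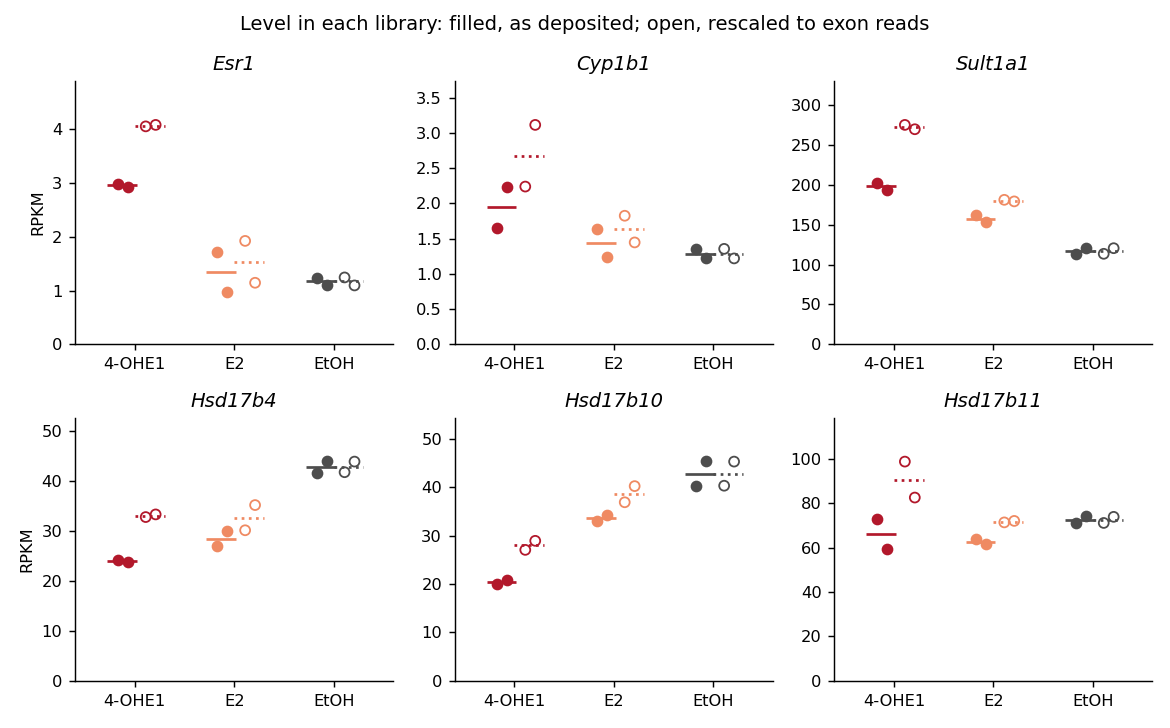
RPKM of the 6 tested genes in each library, with 4-OHE1 left, E2 in the middle and EtOH right; filled points are on the authors' scale, open points are rescaled to exon reads, and lines are group means. Sult1a1 stood highest in 4-OHE1 and lowest in EtOH, and Hsd17b10 the other way round.

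Esr1, which encodes ERα, rose with 4-OHE1. Its levels were 2.99 and 2.93 RPKM in 4-OHE1, 1.72 and 0.977 RPKM in E2, and 1.24 and 1.10 RPKM in EtOH. Both 4-OHE1 libraries lay above all others, and the E2 libraries lay on either side of EtOH on this scale. The 4-OHE1 mean was 3.48-fold that of EtOH after rescaling to exon reads and 2.53-fold on the authors' scale. The log2 change was 1.23 ± 0.25 (SE; 95% interval 0.61 to 1.84; limma adjusted p = 0.0272). For E2 against EtOH it was 0.21 ± 0.25 (interval -0.40 to 0.82; limma adjusted p = 0.844), an interval that spans a fall, no change and a rise. The 4-OHE1 call was lost when either EtOH library was left out, with limma adjusted p of 0.136 without replicate 1 and 0.174 without replicate 2, and with no filter on low genes at 0.0508.

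Depth behind Esr1 was modest. It had 175 and 138 reads in 4-OHE1, 77 and 48 in E2, and 174 and 289 in EtOH. As CPM, reads scaled to the exon reads of the library, this is 30.4 (exact Poisson 95% interval 26.0 to 35.2) and 30.6 (25.7 to 36.1) in 4-OHE1. E2 stood at 14.4 (11.4 to 18.0) and 8.56 (6.31 to 11.4), and EtOH at 9.31 (7.97 to 10.8) and 8.19 (7.27 to 9.19). The intervals of 4-OHE1 lay apart from all others, and they cover counting error only. In the authors' deposited table Esr1 had a log2 fold change of 1.73 with an adjusted p of 1.93e-05 for 4-OHE1 against EtOH, and 0.37 with 0.664 for E2 against EtOH. The files place Esr1 (NM_001302532) at chr10:5340908-5734552 in mm9, with 6346 bases of exon.

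**Figure D2:**
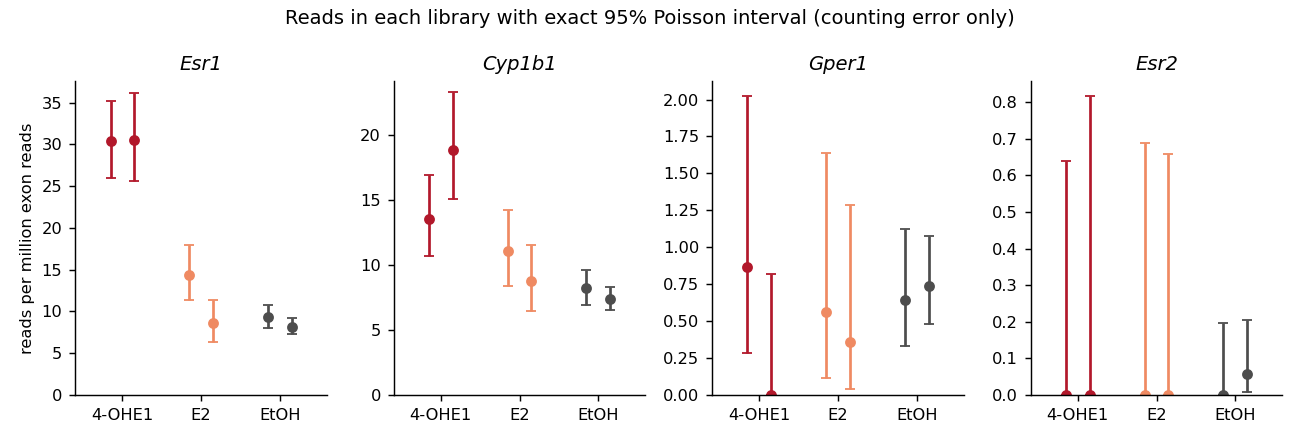
CPM over exon reads of Esr1, Cyp1b1, Gper1 and Esr2 in each library, with exact Poisson 95% intervals, 4-OHE1 left, E2 in the middle and EtOH right. Esr1 in 4-OHE1, at 30.4 and 30.6, lay apart from the other libraries.

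ERβ and GPER transcripts were at or near the detection limit. Esr2 had 0 reads in all 4 estrogen-treated libraries and 0 and 2 reads in EtOH. A count of 0 allows up to 0.520 and 0.664 CPM in 4-OHE1, and up to 0.561 and 0.535 in E2, taking 3 reads as the limit. The exact Poisson intervals in the plot of these genes reach higher at 0 reads, to 0.640 and 0.817 CPM in 4-OHE1 and 0.690 and 0.658 CPM in E2, since they are two-sided. Its row carries a non-coding transcript (NR_104386). Gper1 had 5 and 0 reads in 4-OHE1, 3 and 2 in E2, and 12 and 26 in EtOH, or 0.867 and 0, 0.561 and 0.357, and 0.642 and 0.737 CPM in the same order. A difference in either receptor was not detectable at this depth. Gper1 overlaps 3110082I17Rik on the other strand, and since no strand setting is stated their reads cannot be told apart.

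Cyp1b1, a cytochrome P450 whose human form makes catechol estrogens and a known target of the aryl hydrocarbon receptor, did not pass the test in any comparison. It stood at 1.65 and 2.24 RPKM in 4-OHE1, 1.63 and 1.24 RPKM in E2, and 1.35 and 1.22 RPKM in EtOH. The 4-OHE1 libraries were the highest of the 6, with a narrow gap to the upper E2 library. The log2 change for 4-OHE1 against EtOH was 0.68 ± 0.25 (interval 0.062 to 1.29; limma adjusted p = 0.253). On recovered reads edgeR gave 1.03 with an adjusted p of 0.0428, and DESeq2 gave 1.05 with 0.0648. The edgeR setting was the only 1 of 14 alternatives that passed. In the authors' deposited table Cyp1b1 had a log2 fold change of 0.99 with an adjusted p of 0.161 for this comparison. For E2 against EtOH it was 0.20 ± 0.25 (interval -0.41 to 0.82; limma adjusted p = 0.862). Cyp1b1 (NM_009994) lies at chr17:80106293-80114381 in mm9.

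Sult1a1, a cytosolic sulfotransferase of phenols and estrogens, rose in both estrogen groups. Its levels were 203 and 193 RPKM in 4-OHE1, 162 and 153 RPKM in E2, and 113 and 121 RPKM in EtOH. The 3 groups did not overlap, and 4-OHE1 lay above E2. After rescaling to exon reads the mean was 2.33-fold that of EtOH in 4-OHE1 and 1.54-fold in E2, against 1.69-fold and 1.35-fold on the authors' scale. The log2 change was 1.21 ± 0.063 for 4-OHE1 against EtOH (interval 1.06 to 1.37; limma adjusted p = 0.00068). It was 0.62 ± 0.063 for E2 against EtOH (interval 0.47 to 0.77; limma adjusted p = 0.0237). The 4-OHE1 call held in 15 of 15 alternative settings, with adjusted p up to 0.0133. The E2 call was lost whenever 1 of its own 4 libraries was left out: limma adjusted p was 0.296 and 0.203 without EtOH replicates 1 and 2, and 0.0988 and 0.0868 without E2 replicates 1 and 2. The authors' deposited table gave Sult1a1 log2 fold changes of 1.15 for 4-OHE1 and 0.60 for E2, with adjusted p of 6.1e-15 and 3.67e-08. Sult1a1 (NM_133670) lies at chr7:133816384-133819871 in mm9.

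Hsd17b10, a mitochondrial dehydrogenase of isoleucine breakdown that is also a subunit of mitochondrial RNase P, fell with 4-OHE1. It stood at 19.9 and 20.7 RPKM in 4-OHE1, 33.0 and 34.3 RPKM in E2, and 40.2 and 45.4 RPKM in EtOH. No groups overlapped on this scale. After rescaling to exon reads E2 and EtOH nearly touched, with 40.21 in E2 replicate 2 and 40.29 in EtOH replicate 1. The 4-OHE1 libraries stayed apart below both groups, at 27.05 and 28.92. The log2 change for 4-OHE1 against EtOH was -0.59 ± 0.11 (interval -0.86 to -0.33; limma adjusted p = 0.0111), a mean 0.654 times that of EtOH after rescaling and 0.475 times on the authors' scale. Leaving out EtOH replicate 1 or 2 ended the call, with limma adjusted p of 0.0762 and 0.145. E2 against EtOH gave -0.15 ± 0.11 (interval -0.41 to 0.12; limma adjusted p = 0.589). In the authors' deposited table the log2 fold changes of Hsd17b10 were -0.68 for 4-OHE1 and -0.18 for E2, with adjusted p of 0.0347 and 0.625. Hsd17b10 (NM_016763) lies at chrX:148436439-148438985 in mm9.

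Hsd17b4, the bifunctional enzyme of peroxisomal β-oxidation, was lower in all 4 estrogen-treated libraries without passing the test under both scalings. It stood at 24.2 and 23.9 RPKM in 4-OHE1, 27.0 and 30.1 RPKM in E2, and 41.7 and 44.1 RPKM in EtOH. Its log2 change was -0.36 ± 0.11 for 4-OHE1 (interval -0.63 to -0.097; limma adjusted p = 0.0545). For E2 it was -0.38 ± 0.11 (interval -0.65 to -0.12; limma adjusted p = 0.120). On the authors' scaling alone the changes were -0.81 and -0.57, with limma adjusted p of 0.0016 and 0.0266. On recovered reads edgeR and DESeq2 gave Hsd17b4 adjusted p of 0.0238 and 0.0374 for 4-OHE1 against EtOH, and 7 of 15 alternatives passed. In the authors' deposited table Hsd17b4 had adjusted p of 0.0382 for 4-OHE1 and 0.00349 for E2. Hsd17b4 (NM_008292) lies at chr18:50287855-50355924 in mm9.

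Hsd17b11, a dehydrogenase of lipid droplets, had no call in any comparison and a direction that depended on the scaling. It stood at 72.7 and 59.1 RPKM in 4-OHE1, 63.7 and 61.4 RPKM in E2, and 70.8 and 74.0 RPKM in EtOH. For 4-OHE1 against EtOH the log2 change was 0.31 ± 0.10 after rescaling to exon reads and -0.14 on the authors' scaling (limma adjusted p = 0.343). For E2 it was -0.015 ± 0.10 (interval -0.26 to 0.23; limma adjusted p = 0.966). Hsd17b11 (NM_053262) lies at chr5:104418784-104450815 in mm9.

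Of the 6 genes tested, 3 passed for 4-OHE1 against EtOH (Esr1 and Sult1a1 higher, Hsd17b10 lower), where 19.6% of all tested genes did, 5.74% higher and 13.9% lower. For E2 against EtOH 1 passed (Sult1a1, higher), against 3.93% of all, 1.75% higher and 2.17% lower. On recovered reads, edgeR called 28.9% of all genes for 4-OHE1 and 7.55% for E2, and DESeq2 called 24.1% and 9.59%. At unadjusted p under 0.05 the counts of the 6 were 4 and 2. The share of all tested genes at that threshold was not computed. Counts at unadjusted p, here and below, therefore have no background beside them and are not read as results. The median log2 change of the 6 was 0.49 for 4-OHE1 and 0.093 for E2, beside -0.043 and -0.0049 over all tested genes. Both comparisons share the EtOH libraries.

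**Figure D3:**
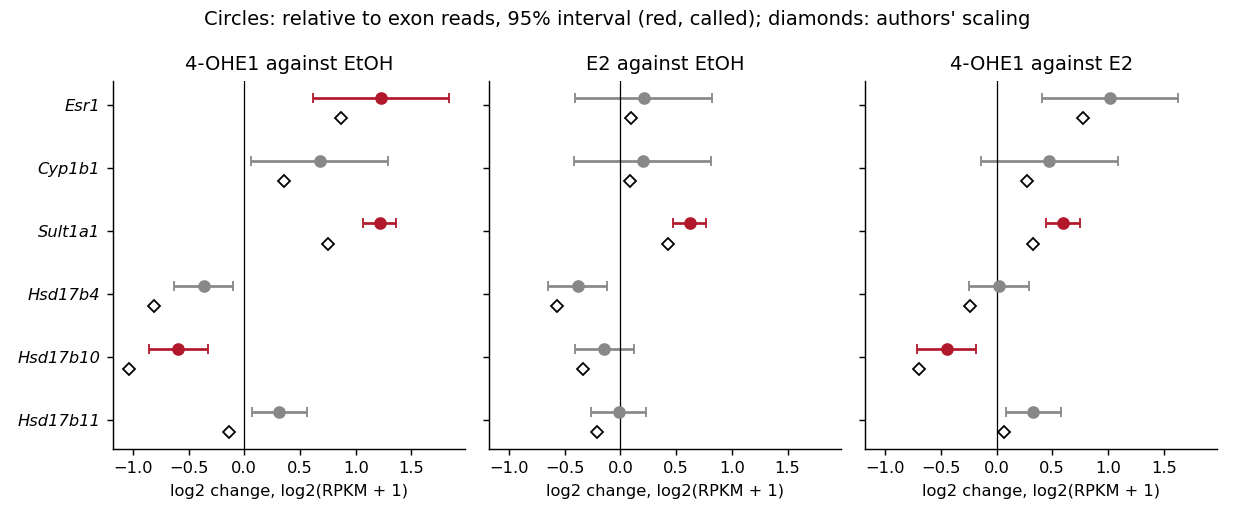
Log2 change of the 6 tested genes after rescaling to exon reads (circles with 95% intervals, red where called) and on the authors' scaling (diamonds), for 4-OHE1 against EtOH, E2 against EtOH and 4-OHE1 against E2. Sult1a1 lay above 0 in all 3 comparisons, and Hsd17b11 changed sign between scalings for 4-OHE1 against EtOH.

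**Figure D4:**
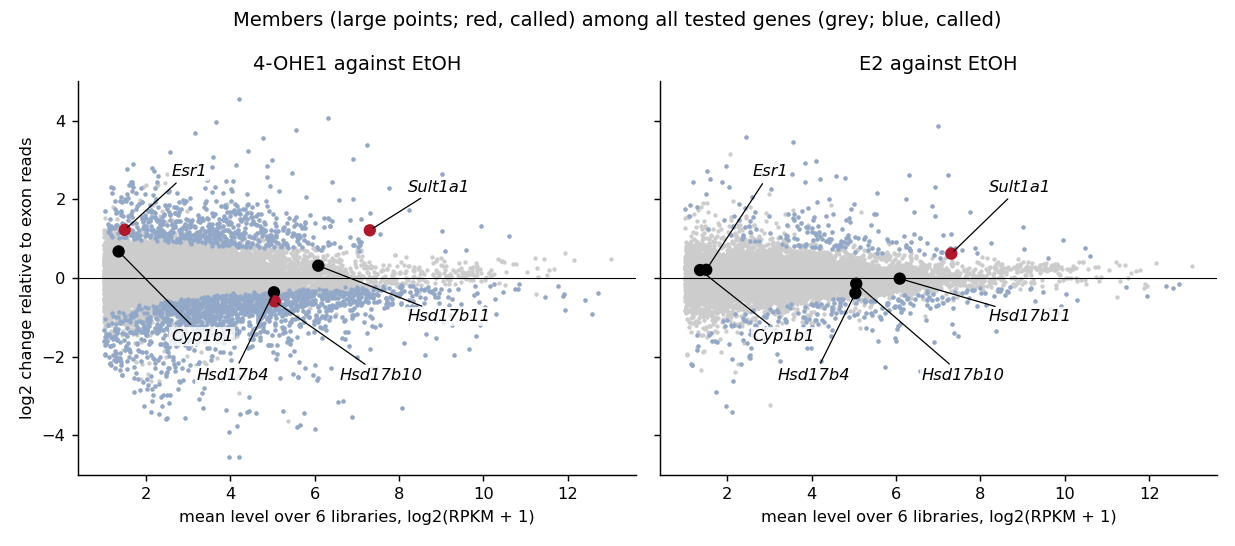
Log2 change against mean log2 level for all 10950 tested genes, 4-OHE1 against EtOH left and E2 against EtOH right, with the 6 genes labelled (red where called). Sult1a1 was the most abundant of the 6, and Esr1 and Cyp1b1 lay near the lower limit of the tested range.

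4-OHE1 and E2 were compared directly at the same dose of 10 mg/kg and the same 30 days, for 1 pair of compounds, with p-values adjusted over all tested genes. Of the 6 genes, Sult1a1 was higher and Hsd17b10 lower in 4-OHE1, where 9.64% of all tested genes passed, 2.50% higher and 7.14% lower; edgeR called 14.4% and DESeq2 13.1%. At unadjusted p under 0.05 the count was 3, again without a share over all tested genes. The median log2 change of the 6 was 0.40, beside -0.020 over all tested genes. Sult1a1 differed by 0.59 ± 0.063 (interval 0.44 to 0.74; limma adjusted p = 0.025) and Hsd17b10 by -0.45 ± 0.11 (interval -0.71 to -0.18; limma adjusted p = 0.0476). The Sult1a1 call held in 10 of 15 alternatives and was lost with only the libraries of both groups, at limma adjusted p = 0.073, and without either EtOH or either E2 library, at up to 0.0913. The Hsd17b10 call held in 5 of 15, with adjusted p of 0.00736 to 0.213.

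Esr1 was 1.02 ± 0.25 higher on the log2 scale in 4-OHE1 than in E2, with no overlap between libraries, and missed the threshold (interval 0.41 to 1.63; limma adjusted p = 0.0654). edgeR and DESeq2 on recovered reads gave Esr1 adjusted p of 0.0183 and 0.00519. For Cyp1b1 the interval of the difference was -0.14 to 1.09, for Hsd17b4 -0.25 to 0.29, and for Hsd17b11 0.080 to 0.58 (limma adjusted p = 0.437, 0.920 and 0.705). The Hsd17b11 interval, after rescaling to exon reads, excludes 0, and that scaling alone gave limma adjusted p = 0.0873. The 0.705 is from the authors' scaling, where the Hsd17b11 log2 change was 0.066. The Cyp1b1 and Hsd17b4 intervals span 0. All 3 intervals leave room for differences of their width, so a like response of the 3 genes to both compounds is not shown.

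Around the receptors, 18 coregulators of estrogen receptors were tested. With 4-OHE1 against EtOH 4 rose and 2 fell, where 5.74% of all tested genes rose and 13.9% fell: Ncoa1 by a log2 change of 2.16, the acetyltransferase genes Ep300 and Crebbp by 1.25 and 1.09, and the corepressor Ncor1 by 0.98, while the RNA helicase genes Ddx17 and Ddx5 changed by -0.50 and -0.32. The median of the list was 0.33. With E2, 1 rose, Ncoa1 by 0.80, where 1.75% of all tested genes rose. On recovered reads edgeR tested 19 coregulators, and 9 rose and 2 fell with 4-OHE1, where it called 1705 of 12176 genes higher and 1818 lower. By DESeq2 8 rose and 2 fell, where it called 1721 of 13905 genes higher and 1630 lower. With E2 edgeR called 3 higher and DESeq2 4, beside 551 of 12176 and 660 of 11232 genes higher. These totals, not the limma shares, are the background of the edgeR and DESeq2 counts against EtOH of the lists below. Ncoa1, a coactivator of steroid receptors, stood at 22.6 and 23.9 RPKM in 4-OHE1, 9.74 and 11.0 RPKM in E2, and 6.24 and 6.48 RPKM in EtOH. Against E2, 4-OHE1 had higher Ncoa1 and Ep300 (1.36 and 0.87) and lower Prmt1 (-0.47), with 15 not passing. In that comparison 2.50% of all tested genes were higher and 7.14% lower.

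With 4-OHE1 5.74% of all tested genes rose and 13.9% fell, and with E2 1.75% rose and 2.17% fell. Of 13 estrogen-responsive genes tested, 2 rose and 3 fell with 4-OHE1, and 1 rose and 3 fell with E2. The balance differed by tool: edgeR called 5 higher and 3 lower with 4-OHE1 and DESeq2 4 higher and 4 lower, and both called 4 higher and 3 lower with E2. The angiogenic factor Vegfa rose by 1.21 with 4-OHE1 and 1.78 with E2, and the chemokine Cxcl12 rose with 4-OHE1 by 0.79. Ctsd, Ccnd1 and Igf1, a lysosomal protease, a cyclin and a growth factor, changed by -1.48, -1.35 and -1.06 with 4-OHE1 and by -0.88, -0.66 and -0.63 with E2. These 3 were also lower in 4-OHE1 than in E2, with 10 of 13 not passing, beside 7.14% lower among all tested genes. Of 5 other steroid and estrogen-related receptors tested, 0 passed limma in either comparison with EtOH. At unadjusted p under 0.05 there was 1 in each, and edgeR and DESeq2 each called 1 lower with 4-OHE1 and 0 with E2. The glucocorticoid receptor Nr3c1 averaged 13.4 ± 1.43 RPKM in 4-OHE1, 13.6 ± 1.85 RPKM in E2 and 19.0 ± 0.605 RPKM in EtOH. After rescaling to exon reads its log2 change was -0.040 for 4-OHE1 and -0.28 for E2 (limma adjusted p = 0.87 and 0.426).

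Among enzymes outside the 9, aromatase (Cyp19a1), which makes estrogens from androgens, was listed at 0 in all 6 libraries. A list of steroid enzymes, which holds estrogen synthesis genes, 17β-dehydrogenases and enzymes of other steroids, had 5 tested genes. With 4-OHE1 3 of the 5 fell, where 13.9% of all tested genes did. These were Hsd17b7 by a log2 change of -1.05, Hsd17b12 by -0.63, and Hsd3b7, which is not a 17β-dehydrogenase, by -0.72. Hsd17b7 averaged 0.341 RPKM in 4-OHE1, 0.748 RPKM in E2 and 2.03 RPKM in EtOH (limma adjusted p = 0.0491 for 4-OHE1 against EtOH). It passed the filter only through EtOH, which favoured a fall in advance. With E2 0 passed limma, 1 had an unadjusted p under 0.05, and edgeR and DESeq2 called 0. Of 20 genes of conjugation and catechol detoxification, 5 fell and 0 rose with 4-OHE1, beside 13.9% lower and 5.74% higher among all tested genes. edgeR called 6 lower and 1 higher. Among the 5 called by limma were Gstp2 at -1.62 and Gstp1 at -0.54, glutathione transferases whose near-identical sequences could share reads, the quinone reductase Nqo2 at -1.21 and the carbonyl reductase Cbr1 at -0.69. With E2 0 of the 20 passed limma, 4 had an unadjusted p under 0.05, and edgeR and DESeq2 called 0. Cbr1 and Abcc1, an exporter of conjugates, were lower in 4-OHE1 than in E2, both by -0.51.

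Sult1e1, the high-affinity estrogen sulfotransferase, averaged 2.48 ± 1.52, 3.17 ± 2.24 and 7.81 ± 0.412 RPKM in 4-OHE1, E2 and EtOH, and did not pass limma. The quinone reductase Nqo1 averaged 0.622 ± 0.0148, 1.38 ± 0.648 and 1.39 ± 0.308 RPKM in the same order, and did not pass limma. Its log2 change was -0.36 for 4-OHE1 against EtOH and 0.082 for E2 against EtOH (limma adjusted p = 0.429 and 0.967).

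The aryl hydrocarbon receptor gene Ahr averaged 3.48 ± 0.358 RPKM in 4-OHE1, 3.28 ± 0.317 RPKM in E2 and 3.28 ± 0.235 RPKM in EtOH. Among all tested genes 13.9% fell with 4-OHE1 and 2.17% with E2. Of 7 genes tested of the Ahr pathway list, 2 fell with 4-OHE1, among them the stress regulator Nfe2l2 by -0.63. With E2 1 fell, Tgfbi by -0.28, which encodes a matrix protein. Of 11 peroxisomal β-oxidation genes, 1 fell with 4-OHE1, Amacr by -1.0, and with E2 0 passed limma, edgeR or DESeq2 and 0 had an unadjusted p under 0.05. Of 7 mitochondrial RNase P and fatty acid genes listed around Hsd17b10, 2 fell with 4-OHE1, the trifunctional protein genes Hadha and Hadhb by -0.78 and -0.57. With E2 0 of the 7 passed limma, 1 had an unadjusted p under 0.05, and edgeR and DESeq2 each called 1 lower. The RNase P gene Trmt10c averaged 7.18 ± 2.09, 6.52 ± 1.49 and 6.74 ± 0.465 RPKM in 4-OHE1, E2 and EtOH.

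Of 11 lipid droplet genes, 2 rose and 2 fell with 4-OHE1, where 5.74% of all tested genes rose and 13.9% fell. The droplet-fusion gene Cidec rose by 1.87 and the triglyceride lipase gene Pnpla2 by 1.39. Hilpda changed by -1.77 and the droplet coat gene Plin2 by -0.95. With E2 1 fell, Plin2 by -0.24, beside 2.17% of all tested genes. By edgeR and DESeq2 alike, 4-OHE1 against EtOH had 1 higher and 3 lower among the steroid enzymes and among the aryl hydrocarbon receptor genes. It had 2 lower among the peroxisomal genes, and 3 higher and 3 lower among the lipid droplet genes. Cidec, Plin1 and Plin4 of the lipid droplet list are also on the adipocyte marker list given below. In 4-OHE1 against EtOH the list medians were 0.25 for estrogen-responsive genes, -0.27 for other receptors, -0.63 for steroid enzymes and -0.20 for conjugation. They were -0.15 for the aryl hydrocarbon receptor pathway, 0.0023 for peroxisomal oxidation, -0.23 for the mitochondrial genes around Hsd17b10 and 0.52 for lipid droplets. The median over all tested genes was -0.043.

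Against E2, 4-OHE1 had lower Nfe2l2 (-0.48), Amacr (-1.14), Plin2 (-0.70) and Hilpda (-1.51) and higher Cidec (1.04) and Pnpla2 (0.73). In that comparison 0 genes passed limma, edgeR or DESeq2 among the other receptors, the steroid enzymes and the mitochondrial genes around Hsd17b10. At unadjusted p under 0.05 there were 0, 3 and 2 in the same order.

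**Figure D5:**
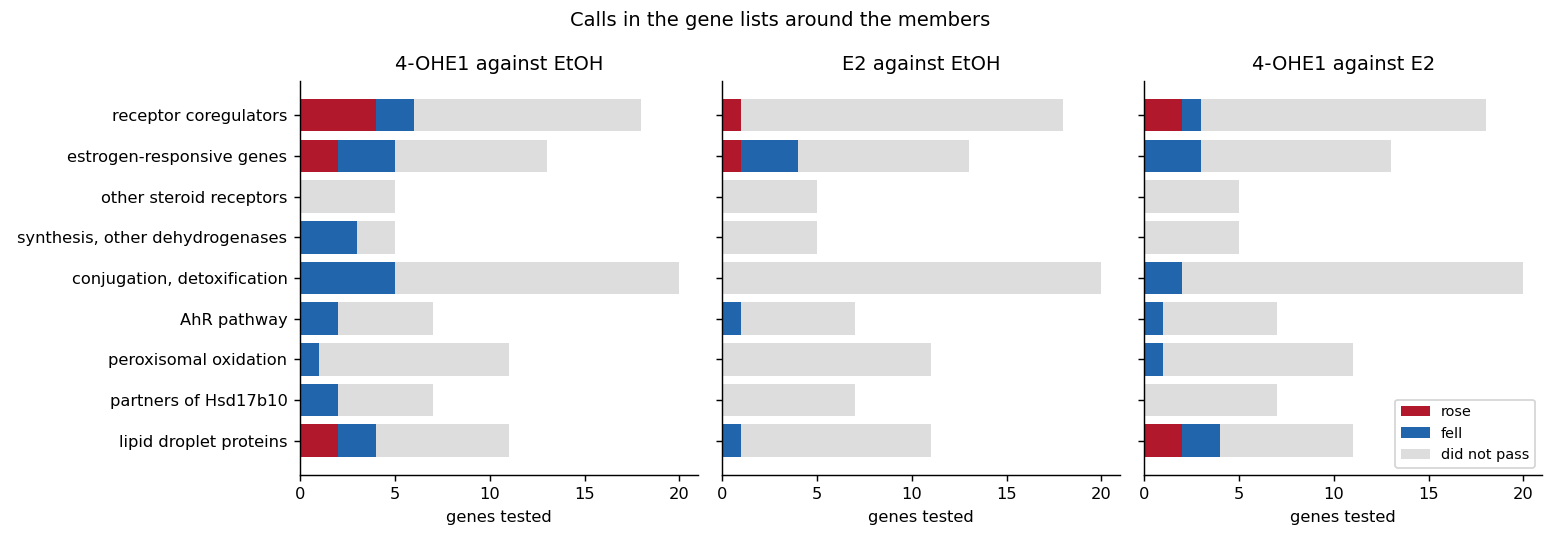
Number of tested genes of each surrounding list that rose (red), fell (blue) or did not pass (grey), for 4-OHE1 against EtOH, E2 against EtOH and 4-OHE1 against E2. With 4-OHE1 against EtOH, 4 of 18 coregulators rose and 5 of 20 conjugation and detoxification genes fell. Of all tested genes 5.74% rose and 13.9% fell.

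The genes closest to each called gene over the 6 libraries were found by the root mean square difference of centred log2 values, with no test. For Esr1 these were Ep300 (0.0805), Eif2ak4 (0.0849) and Pcx (0.0881). For Sult1a1 they were Fbxw7 (0.0480), Zbtb6 (0.0511) and Ubn2 (0.0517). For Hsd17b10 they were Utp6 (0.0238), Pcmt1 (0.0395) and Actr3 (0.0448).

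Marker levels of several cell types differed between the groups. The sums given here are on the authors' scale, which lowers 4-OHE1 and E2 against EtOH for most genes, and the medians are log2 changes against EtOH after rescaling to exon reads. All 13 macrophage markers were tested, and their summed level was 12842 to 13044 RPKM in 4-OHE1, 15375 to 16322 RPKM in E2 and 18870 to 19200 RPKM in EtOH. Their median change was -0.050 with 4-OHE1 and 0.015 with E2. With 4-OHE1 limma called 1 higher and 4 lower, and edgeR and DESeq2 each 5 higher and 4 lower. With E2 limma called 2 lower, edgeR 2 higher and 2 lower, and DESeq2 4 higher and 2 lower. The sort antigen gene Adgre1 (F4/80) averaged 139 ± 7.07 RPKM in 4-OHE1, 172 ± 8.13 RPKM in E2 and 303 ± 3.08 RPKM in EtOH. Itgam (CD11b), the other sort antigen gene, averaged 71.1 ± 2.19, 113 ± 6.16 and 109 ± 0.164 RPKM in the same order. Mertk averaged 41.4 ± 2.81, 30.8 ± 1.52 and 24.5 ± 0.308 RPKM, the reverse of Adgre1. The 12 adipocyte markers summed to 273 to 280 in 4-OHE1, 181 to 183 in E2 and 68.0 to 72.2 RPKM in EtOH. Of 11 tested, 8 rose with 4-OHE1 and 5 with E2 (medians 1.87 and 0.86), beside 5.74% and 1.75% of all tested genes. The 12 stromal cell markers summed to 332 to 336 in 4-OHE1, 424 to 451 in E2 and 610.3 to 610.5 RPKM in EtOH. With 4-OHE1 6 were lower and 1 higher, and with E2 5 were lower (medians -0.67 and -0.40). Among all tested genes 13.9% were lower and 5.74% higher with 4-OHE1, and 2.17% lower with E2. Endothelial markers summed to 31.7 to 32.0 RPKM in 4-OHE1, 28.7 to 29.1 RPKM in E2 and 42.4 to 42.9 RPKM in EtOH, and 0 of 10 passed limma in either comparison with EtOH (unadjusted p under 0.05 in 1 with 4-OHE1 and 2 with E2; edgeR and DESeq2 each called 3 with 4-OHE1 and 0 with E2). Their median was 0.18 with 4-OHE1, opposite in sign to the difference of the sums, and -0.305 with E2. Mesothelial, T and NK, B and neutrophil markers each summed to at most 13.8 RPKM in every library. Of these, Cd2 of the T and NK list was lower with 4-OHE1 (limma adjusted p = 0.00506), and edgeR and DESeq2 each called 4 mesothelial markers lower with 4-OHE1. Cd2 averaged 0 RPKM in 4-OHE1, 2.41 RPKM in E2 and 3.41 RPKM in EtOH, and passed the filter only through E2 and EtOH. Epididymis and testis markers summed to 4.57 to 4.76 in 4-OHE1, 11.7 to 20.8 in E2 and 2.21 to 3.28 RPKM in EtOH. Of 4 tested, limma called 2 higher with E2, Prm1 by 2.43 and Prm2 by 1.87 (adjusted p = 0.0168 and 0.0312). With 4-OHE1 limma, edgeR and DESeq2 each called 1 higher. With E2 edgeR called 1 higher and DESeq2 0. Ly6g and Camp of the neutrophil list and Defb42 of the epididymis list were at 0 in all libraries. The part of these markers in the changes of Esr1, Sult1a1 and Hsd17b10 was not tested, and in bulk RNA fewer cells of a type and less RNA per cell cannot be told apart.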

How the data were processed

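RNA-seq of sorted adipose macrophages was deposited for 6 libraries in 3 groups. Per the submitters' processing notes, STAR, HOMER, DESeq2, edgeR and mm9 were used. Per the file headers, HOMER counted reads in exons with genes condensed to 1 row, and no strand setting is given. The authors deposited RPKM values for all libraries, and 2 tables of normalized signal with log2 fold changes, p-values and adjusted p-values against EtOH. All 119614 deposited signal values above 0 were within 0.05 of a whole multiple of 1 read, so reads were recovered from them. All 24155 genes with the same transcript in both tables had the same EtOH reads in both.

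From the RPKM, log2(RPKM + 1) was tested with limma 3.58.1 (trend, R 4.3.3) in 1 fit of all 6 libraries, over genes with a mean of at least 1 RPKM, with Benjamini-Hochberg adjustment, under the authors' scaling and after rescaling to exon reads. edgeR 4.0.16 (quasi-likelihood) and DESeq2 1.42.0 on recovered reads were alternatives, beside other pseudocounts, filters, a replicate block and leaving out each library. The fit was tested on simulated data. Counting intervals are exact Poisson at 95%, and both they and the limit of 3 reads cover counting error only. Motifs were searched in the 250 bases before RefSeq starts. The genes and the lists were chosen with earlier results of these data known. Named from each list were up to 4 passing genes with the largest change, plus Cyp19a1, Sult1e1, Ahr, Nr3c1 and Nqo1, and the 3 genes closest to each called gene; some genes that the rule names are not reported here.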

Additional observations from a re-analysis of the deposited data

How the results depend on the processing

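Depth limits Esr2 and Gper1, and 2 libraries a group limit all p-values. Of 18 results for single genes, 14 kept their direction in every alternative. Of the 6 that were called, 1 was called in every alternative (Sult1a1, 4-OHE1 against EtOH), and of the 12 not called, 4 passed in at least 1. For E2 against EtOH 430 genes passed (192 higher, 238 lower). The authors' scaling alone gave 789 (193 higher, 596 lower), exon scaling alone 586 (348 higher, 238 lower), edgeR 919 (551 higher, 368 lower), DESeq2 1077 and only the libraries of both groups 1029. Leaving out 1 library gave 46 to 1037. For 4-OHE1 against EtOH 2150 passed (629 higher, 1521 lower), with 4957 under the authors' scaling (629 higher, 4328 lower), 2920 under exon scaling (1399 higher, 1521 lower), 3523 with edgeR (1705 higher, 1818 lower), 3351 with DESeq2 and 563 to 3181 without 1 library. For 4-OHE1 against E2 1056 passed (274 higher, 782 lower), with 2436 under the authors' scaling (274 higher, 2162 lower), 1389 under exon scaling (607 higher, 782 lower), 1748 with edgeR (796 higher, 952 lower), 1819 with DESeq2, 338 with only the libraries of both groups and 172 to 2241 without 1 library. Of the 6 genes, E2 against EtOH called 1, or 2 under the authors' scaling and 0 to 1 without 1 library. 4-OHE1 against EtOH called 3, or 5 with edgeR and 1 to 4 without 1 library. 4-OHE1 against E2 called 2, or 1 with no filter, 1 with the replicate block, 0 with only the libraries of both groups and 0 to 2 without 1 library. Directions reversed for Esr1, E2 against EtOH, without E2 replicate 1 (-0.016; -0.016 to 0.43 without 1 library), and for Hsd17b11, E2 against EtOH, without EtOH replicate 2 (0.012; -0.042 to 0.012 without 1 library). They also reversed for Hsd17b11, 4-OHE1 against EtOH, under the authors' scaling (-0.14). Hsd17b4, 4-OHE1 against E2, reversed under the authors' scaling (-0.235), with edgeR (-0.0061) and without E2 replicate 1 (-0.088; -0.088 to 0.13 without 1 library). The cause was not tested. Replicate numbers are shared between groups only as numbers, with correlations of deviations of 0.0123 for 4-OHE1 with E2, -0.0202 for 4-OHE1 with EtOH and -0.00967 for E2 with EtOH over 10950 genes. With the replicate block 330, 1911 and 856 genes passed for E2 against EtOH, 4-OHE1 against EtOH and 4-OHE1 against E2, and Hsd17b10 had a limma adjusted p of 0.0551 for 4-OHE1 against E2.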
